A study of Mus musculus with 6 samples.

Results

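Kainate receptors are ionotropic glutamate receptors assembled from subunits encoded by Grik1 to Grik5, and Neto1 and Neto2 encode transmembrane proteins that join these receptors as auxiliary subunits. All 7 genes were found by symbol among the 31838 genes of the deposited table, and all 7 passed the filter on low counts. They were measured by polyA-selected RNA sequencing in hippocampus of C57BL/6 wild type mice at 4 months of age. One group of 3 libraries came from mice given BBP (butyl benzyl phthalate, used to soften plastics) at 50 mg/kg/day, and the other group of 3 came from mice given corn oil. The series title links the compound to impaired cognition, and the question here is whether transcripts of this receptor family differed in treated mice. The labels name neither the route and length of treatment nor the number of animals behind each library, so the p-values speak only of spread from library to library, which may be technical.

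Subunits GluK1, GluK2 and GluK3, from Grik1, Grik2 and Grik3, can form channels without GluK4 or GluK5, while GluK4 and GluK5, from Grik4 and Grik5, bind glutamate with high affinity and need one of the other group to make a working channel. In the hippocampus these receptors are best known from the synapse between mossy fibres and CA3 pyramidal neurons, where they carry a slow postsynaptic current and also regulate transmitter release from the terminal. Neto proteins slow the gating of the channel and affect its placement at synapses.

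The stretch coding for the pore loop is given because it holds the site at which Grik1 and Grik2 transcripts are known to be edited from a glutamine to an arginine codon. Each line has 45 bases of coding sequence, 5′ to 3′ on the gene's own strand, from GENCODE M21 transcripts of the mm10 (GRCm38) genome, with the glutamine codon at the editing position in capitals.
Grik1: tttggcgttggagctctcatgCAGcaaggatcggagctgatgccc
Grik2: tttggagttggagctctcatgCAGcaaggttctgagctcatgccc
Grik3: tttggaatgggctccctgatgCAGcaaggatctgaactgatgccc
Grik4: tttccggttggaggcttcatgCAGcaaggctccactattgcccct
Grik5: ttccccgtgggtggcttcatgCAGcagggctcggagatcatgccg
The capital codon lies at chr16:87940542-87940544 (minus strand) in Grik1, chr10:49244329-49244331 (minus) in Grik2, chr4:125691207-125691209 (plus) in Grik3, chr9:42547623-42547625 (minus) in Grik4 and chr7:25022497-25022499 (minus) in Grik5. All 5 reference transcripts carry the same codon there, and the deposited values per gene hold no information on editing. Grik1 and Grik2 share 41 of these 45 bases, and each shares 36 with Grik3, whereas Grik4 shares 24 to 31 with any other subunit gene. Grik5 shares 31 with Grik4, about as many as with Grik1 (32), Grik2 (31) and Grik3 (28), so these bases do not set Grik4 and Grik5 together. The 45 bases cross an exon boundary in Grik1, Grik2 and Grik3 and lie in a single exon in Grik4 and Grik5. Over the whole coding sequence, identity of aligned bases was 71.8% to 72.7% within Grik1, Grik2 and Grik3, 72.3% between Grik4 and Grik5, 59.6% to 64.1% across these groups and 67.6% between Neto1 and Neto2. The longest identical run shared by transcripts of any pair of the 7 genes was 46 bases, between Grik2 and Grik3.

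In the deposited coordinates (mm10), Grik1 spans chromosome 16 from 87895900 to 88290265, Grik2 chromosome 10 from 49094833 to 49788766 and Grik3 chromosome 4 from 125490700 to 125714173. Grik4 spans chromosome 9 from 42518135 to 42944493, Grik5 chromosome 7 from 25009849 to 25072292, Neto1 chromosome 18 from 86394952 to 86506718 and Neto2 chromosome 8 from 85636588 to 85700924. Exons of Grik4, Neto1 and Neto2 overlap annotated noncoding genes, with means of at most 0.145 FPKM in either group, and no other member has an exon overlap.

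Estimated counts summed to 62477604 to 67270275 per BBP library and 62747522 to 68422361 per corn oil library, and the 7 genes had 759 to 14819 of them per library. These counts are not single fragments, since a count of 4 was more frequent (1007 to 1100 genes per library) than a count of 3 (595 to 650). No gene of the 18 marker and pathway lists stood at 0 in any library. Markers of dentate granule neurons, CA1 and CA3 were present in all 6 libraries, among them Bok of CA3 at 18.5, 18.9 and 31.2 FPKM in BBP libraries 1 to 3, against 35.0, 36.6 and 27.2 in corn oil libraries 1 to 3. BBP library 2 had 11.5% of its counts in mitochondrial genome transcripts, against 7.11% to 8.57% in the other libraries, and the highest sum of FPKM. In markers of striatum, isocortex, dentate granule neurons, CA1, and CA3 and CA2, BBP library 1 stood apart from the other 5. It did not for thalamus markers, where its median was -0.04 on the log2 scale relative to the corn oil mean. Relative to the corn oil mean, its median for 12 striatum markers was 1.49 on the log2 scale and its median for 9 isocortex markers 1.21, while 7 dentate granule, 6 CA1 and 7 CA3 and CA2 markers had medians of -0.93, -0.59 and -0.82. Corn oil library 3 leaned the same way to a smaller degree, at 0.37, 0.18, -0.43, -0.25 and -0.20 for the same 5 lists. The fold change of each of the 7 genes and the median of each pathway list are therefore given with and without BBP library 1.

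Grik5 was the most abundant of the 7 transcripts and Grik1 the least abundant in every library, with a median over the 6 libraries of 37.1 FPKM for Grik5 and 1.86 for Grik1. FPKM is a level per kilobase of exon scaled to sequencing depth, so it can be compared between genes. Neto1 came second with a median of 15.3 FPKM and a range of 11.2 to 18.0. Grik4, Neto2, Grik3 and Grik2 followed with medians of 7.71, 6.82, 5.45 and 4.68 FPKM. The ranges of Grik4 and Neto2 overlapped, as did those of Neto2 and Grik3 and those of Grik3 and Grik2, so the middle of the order is not fixed by these libraries. The mean FPKM of Grik5 exceeded that of 94.5% of the 20428 tested genes, that of Neto1 85.4% and that of Grik1 44.2%.

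The order of the middle genes also rests on the length used. The deposited FPKM divides by all annotated exon bases of a gene, which is 6721 bases for Grik1 and 13246 for Grik2, although their longest coding transcripts have 3655 and 9427 bases. For Grik3 and Neto1 both lengths are the same, at 8973 and 8352 bases. With counts divided by the longest coding transcript, Grik5, Neto1 and Grik1 kept their places, Neto2 came before Grik4 and Grik2 before Grik3.

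**Figure D1:**
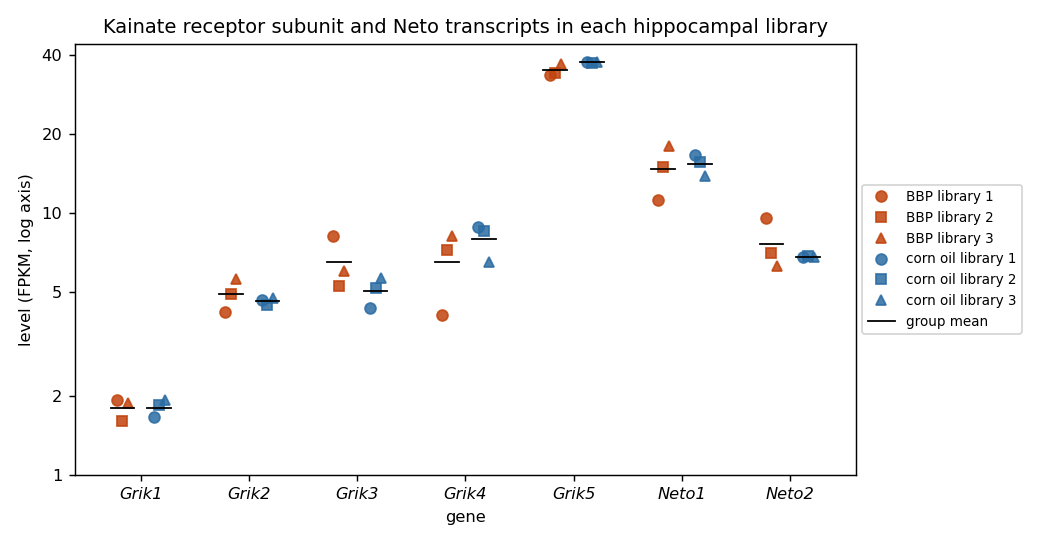
Level of each gene in FPKM (log axis) in the 3 BBP libraries (orange, left) and the 3 corn oil libraries (blue, right), with a marker shape per library and a bar at the group mean. BBP library 1 has the lowest Grik4 and Neto1 values, 4.07 and 11.2 FPKM, and the highest Grik3 and Neto2 values, 8.15 and 9.58 FPKM.

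None of the 7 genes passed the test between BBP and corn oil. In edgeR's quasi-likelihood test with Benjamini-Hochberg adjustment over all 20428 tested genes, 0 of 7 members and 0 of all genes (0.00%) had an adjusted p under 0.05. At an unadjusted p under 0.05 there was 1 member of 7, Grik3, where 3.35% of all tested genes stood (685 genes). DESeq2 called 4 genes in all, none of them a member. Fold changes were above 1 for 4 members and below 1 for 3, where 52.4% of all tested genes were above 1 with a median log2 fold change of 0.01. On CPM (depth-scaled counts with TMM factors) the groups did not overlap for 2 of 7 members, Grik3 and Grik5, against 10.4% of all tested genes.

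Among the subunits that can form channels without GluK4 or GluK5, Grik3 had the largest fold change with all 6 libraries, while without BBP library 1 Grik2 had the largest (log2 0.22, against 0.19 for Grik3). Grik3 had 8.15, 5.28 and 5.98 FPKM in BBP libraries 1 to 3, against 4.34, 5.18 and 5.62 FPKM in corn oil libraries 1 to 3. BBP library 1 was the highest of the 6, and BBP library 2 lay below corn oil library 3 in FPKM, although on the CPM scale, at 56.1 against 55.5, it lay just above it. The log2 fold change of Grik3 was 0.38 ± 0.16 (SE; n = 3 per group; 95% interval 0.01 to 0.74) with an unadjusted p of 0.0431 and an adjusted p of 0.953 in edgeR. Without BBP library 1 it was 0.19 ± 0.12 (95% interval -0.08 to 0.46, edgeR adjusted p = 0.735), with an interval that includes 0.

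Grik2 encodes the subunit whose loss abolishes most kainate currents at mossy fibre synapses in mice. It had 4.19, 4.88 and 5.61 FPKM in BBP libraries 1 to 3, against 4.63, 4.46 and 4.72 in corn oil libraries 1 to 3. BBP library 1 was the lowest of the 6 and the other BBP libraries the highest, so the groups overlapped through that library alone. Its log2 fold change was 0.11 ± 0.11 (SE, 95% interval -0.15 to 0.37, edgeR adjusted p = 0.953). Without BBP library 1 it was 0.22 ± 0.08 (95% interval 0.04 to 0.41), with an unadjusted p of 0.0247 and an edgeR adjusted p of 0.700. In that fit 7.00% of the 21072 tested genes had an unadjusted p under 0.05, and 3 genes (0.0142%), none of them a member, had an adjusted p under 0.05.

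Grik1, which in the hippocampus is expressed mainly by inhibitory interneurons, had 1.93, 1.60 and 1.88 FPKM in BBP libraries 1 to 3, against 1.66, 1.84 and 1.92 in corn oil libraries 1 to 3. The groups overlapped over nearly their whole range. Its log2 fold change was 0.02 ± 0.12 (SE), and the 95% interval in fold terms ran from 0.840 to 1.22. The interneuron list, with 10 genes such as Sst, which encodes somatostatin, had medians of 0.09, -0.09 and -0.10 on the log2 scale relative to the corn oil mean in BBP libraries 1 to 3, against 0.00, -0.06 and 0.04 in corn oil libraries 1 to 3. Without BBP library 1 the log2 fold change of Grik1 was -0.02 ± 0.13, and it was also just below 0 in limma on FPKM or TPM and without corn oil library 1.

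Of the high-affinity subunits, Grik4, which is strongly expressed by CA3 pyramidal neurons and dentate granule cells, varied most between libraries. It had 4.07, 7.23 and 8.18 FPKM in BBP libraries 1 to 3, against 8.85, 8.50 and 6.50 in corn oil libraries 1 to 3. BBP library 1 was the lowest of the 6 and corn oil library 3 the next lowest, while the remaining 4 libraries lay between 7.23 and 8.85 FPKM. Grik4 had a log2 fold change of -0.27 ± 0.25 (SE, 95% interval -0.84 to 0.30, edgeR adjusted p = 0.953). Without BBP library 1 it was -0.01 ± 0.14 (95% interval -0.33 to 0.30). The 2 libraries with the lowest Grik4 were also the 2 with the lowest medians of CA3 and CA2, dentate granule and CA1 markers. The match was thus not particular to the CA3 and CA2 and dentate granule lists. The part of tissue make-up in the Grik4 values was not tested. In bulk tissue, fewer cells of a type and less RNA per cell cannot be told apart.

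Grik5 was the steadiest gene of the 7 in corn oil, with a coefficient of variation of 0.7%. It had 33.7, 34.2 and 37.1 FPKM in BBP libraries 1 to 3, against 37.6, 37.2 and 37.7 in corn oil libraries 1 to 3. All BBP values lay below all corn oil values, by little in BBP library 3. Its log2 fold change was -0.08 ± 0.08 (SE, edgeR adjusted p = 0.953), and the 95% interval in fold terms ran from 0.837 to 1.07, the narrowest interval of the 7 members. Without BBP library 1 it was -0.04 ± 0.08.

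Neto1 and Neto2, the auxiliary subunits, stood on opposite sides in BBP library 1. Neto1 had 11.2, 14.9 and 18.0 FPKM in BBP libraries 1 to 3, against 16.6, 15.6 and 13.8 in corn oil libraries 1 to 3. BBP libraries held both the lowest and the highest Neto1 value, and its log2 fold change was -0.04 ± 0.16 (SE, 95% interval -0.41 to 0.34, edgeR adjusted p = 0.988). Without BBP library 1 the sign turned, to 0.14 ± 0.10 (edgeR adjusted p = 0.773), and without corn oil library 1 it was 0.03.

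Neto2 had 9.58, 7.05 and 6.26 FPKM in BBP libraries 1 to 3, against 6.77, 6.87 and 6.78 in corn oil libraries 1 to 3. The corn oil values lay within 0.1 FPKM of one another, and the BBP values lay on both sides of them. The log2 fold change of Neto2 was 0.19 ± 0.15 (SE, 95% interval -0.15 to 0.53, edgeR adjusted p = 0.953), and without BBP library 1 it was 0.01 ± 0.11.

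**Figure D2:**
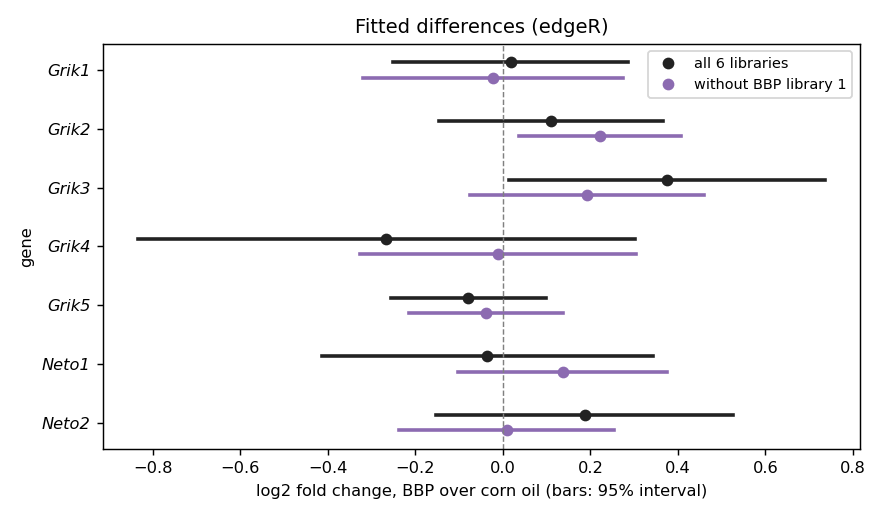
Log2 fold change of BBP over corn oil for each gene from edgeR with its 95% interval, in all 6 libraries (black) and without BBP library 1 (purple). Without that library the points of Grik4 and Neto2 lie near 0, at -0.01 and 0.01, and that of Grik2 lies further from 0, at 0.22.

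The fit leaves different room for a change in each gene. With all 6 libraries, the 95% interval allowed Grik4 to be up to 1.78 times lower or 1.23 times higher in BBP, and Grik3 up to 1.67 times higher. For Neto1 the limits were 1.33 times lower and 1.27 times higher, for Neto2 1.11 times lower and 1.44 times higher, and for Grik2 1.11 times lower and 1.29 times higher. Without BBP library 1 the upper limits of Grik2, Neto1, Grik5 and Grik4 were higher, at 0.41, 0.38, 0.14 and 0.30 on the log2 scale. The lower limits of Grik1, Grik3 and Neto2 were lower in that fit, at -0.32, -0.08 and -0.24.

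Spread within BBP exceeded that within corn oil for all 7 members, since the coefficient of variation was 5.2% to 33.2% in BBP and 0.7% to 15.9% in corn oil. This was not tested as a difference in spread. From BBP libraries 2 and 3 alone, the coefficient of variation was below that of corn oil for Grik3 (8.9% in BBP, 12.9% in corn oil) and Grik4 (8.8% in BBP, 15.9% in corn oil) and above it for the other 5 genes. BBP library 1 had the highest or the lowest FPKM of the 6 libraries for each of the 7 members, by a narrow margin for Grik1 (1.93 against 1.92 in corn oil library 3). The shares of all tested genes with a larger spread in BBP, or with BBP library 1 at an extreme, were not counted. Neither trait is therefore shown to be particular to these 7 genes.

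As shares of the summed level of the 5 subunit genes in FPKM, Grik5 made up 64.7%, 64.3% and 63.1% in BBP libraries 1 to 3, against 65.9%, 65.1% and 66.7% in corn oil libraries 1 to 3. Grik4 made up 7.83%, 13.6% and 13.9% in BBP, against 15.5%, 14.9% and 11.5% in corn oil. Grik3 made up 15.7%, 9.93% and 10.2% in BBP, against 7.60%, 9.05% and 9.97% in corn oil. Grik4 thus exceeded Grik3 in all libraries but BBP library 1. Grik2 made up 8.93% ± 0.78 in BBP and 8.09% ± 0.29 in corn oil, and Grik1 3.31% ± 0.36 in BBP and 3.17% ± 0.26 in corn oil (SD, n = 3 each).

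The summed FPKM of Grik4 and Grik5 over that of Grik1, Grik2 and Grik3 was 2.64, 3.52 and 3.36 in BBP libraries 1 to 3, against 4.37, 3.99 and 3.60 in corn oil libraries 1 to 3. The groups did not overlap, but BBP library 2 and corn oil library 3 were close. This ratio is over chosen members and was described without a test. It has Grik5 above and Grik3 below, whose CPM values did not overlap between the groups either, so it is not a separate observation. On CPM the groups did not overlap for 10.4% of all tested genes. The sum of the 5 subunit genes was 54.6 ± 3.58 FPKM in BBP and 56.9 ± 0.42 FPKM in corn oil (SD, n = 3 each). Neto1 over Neto2 was 1.17, 2.12 and 2.87 in BBP libraries 1 to 3, against 2.44, 2.27 and 2.04 in corn oil libraries 1 to 3. BBP held both the lowest and the highest value.

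**Figure D3:**
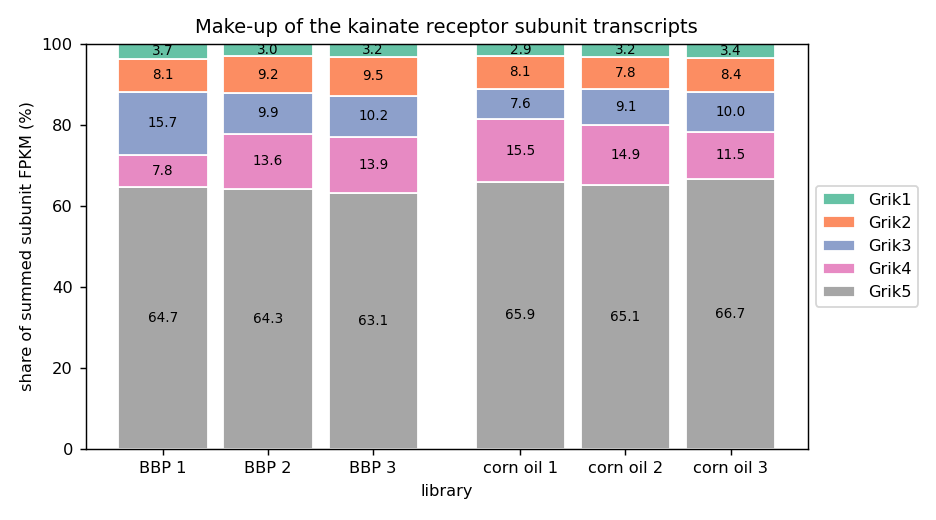
Share of each subunit gene in the summed FPKM of Grik1 to Grik5, as stacked bars per library, the 3 BBP libraries left of the 3 corn oil libraries. Grik5 takes 63.1% to 66.7% in every library, while Grik3 and Grik4 trade places in BBP library 1 (15.7% and 7.83%).

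The members differed in their value in BBP library 1. On the log2 CPM scale relative to the corn oil mean, Grik4 and Neto1 were at -0.95 and -0.45 there, and Grik3 and Neto2 at 0.69 and 0.48. Grik5, Grik2 and Grik1 were nearer to that mean, at -0.16, -0.14 and 0.09. The same library had the low hippocampal and the high striatum and isocortex medians given above. Not every gene of those lists went with its median. Mpped1 of the CA1 list had 50.2 FPKM there, against 44.9 to 46.2 in corn oil. Fezf2 of the isocortex list had 11.1 FPKM there, the lowest of the 6 libraries. The medians of BBP library 1 for 3 endothelial and 7 oligodendrocyte markers were also high, at 0.52 and 0.49. The oligodendrocyte median of BBP library 2 was 0.56, where Grik3 and Neto2 were at 0.17 and 0.15. In corn oil library 3, whose marker medians leaned the same way, Grik4 and Neto1 were at -0.28 and -0.15, Grik3 at 0.16 and Neto2 at -0.01. The part of tissue make-up in these values was not tested.

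**Figure D4:**
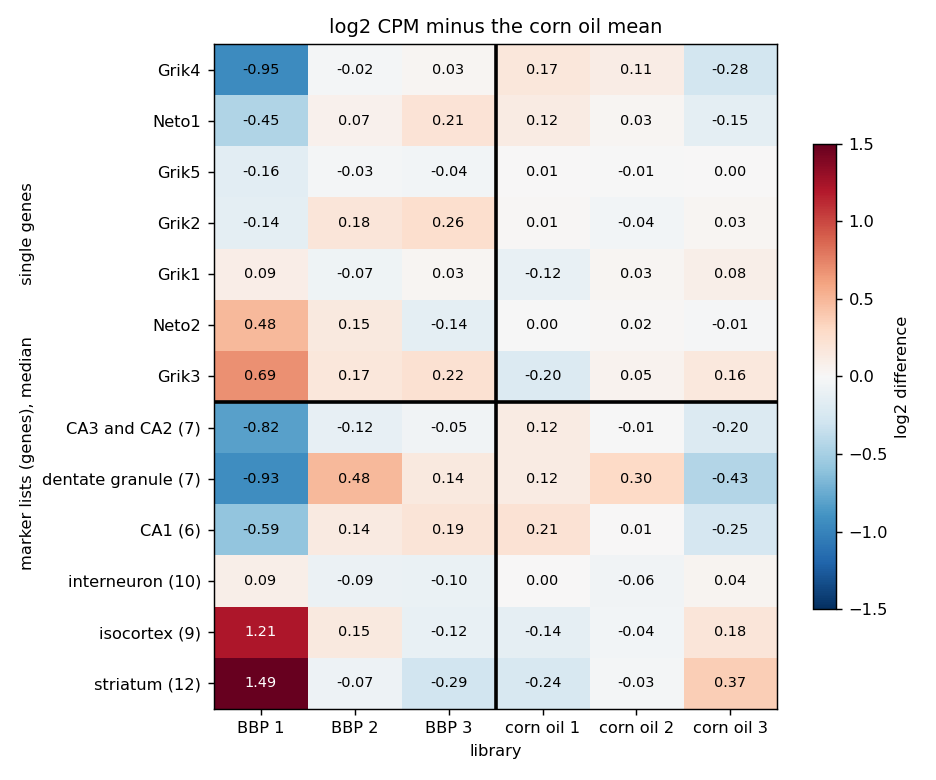
Log2 CPM minus the corn oil mean per library, with BBP left of corn oil and each gene above the line. Below the line are medians of the CA3 and CA2, dentate granule, CA1, interneuron, isocortex and striatum lists, with the number of genes. The other marker lists are not drawn. In BBP library 1 Grik4 (-0.95) and Neto1 (-0.45) are low beside the CA3 and CA2, dentate granule and CA1 lists, and Grik3 (0.69) and Neto2 (0.48) are high beside the isocortex and striatum lists.

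The genes most like each member were found among 11591 annotated genes with a mean of at least 1 FPKM, as the smallest root mean square difference of centred log2(FPKM + 1) over the 6 libraries. Grik4 was nearest to Matn2 (difference 0.041, where Grik4 itself varied by 0.325), a matrilin gene, at 3.98, 6.65 and 8.17 FPKM in BBP libraries 1 to 3 and 8.44, 7.83 and 6.42 in corn oil libraries 1 to 3, and then to Tnfrsf25. Neto1 was nearest to Foxo1, a transcription factor gene, and Nell2, with differences of 0.032 and 0.033 where Neto1 itself varied by 0.202. Grik3 was nearest to Galt and Scd1 at 0.060 and 0.062, and Neto2 to Pdlim1 and Gpr83 at 0.036 and 0.037. Grik1, Grik2 and Grik5 varied by 0.067, 0.108 and 0.065 and were nearest to Fubp1 and Eif2b3, to Tbc1d13 and Mfsd4a, and to Cops3 and Itm2b. With 6 points and many genes searched, such close matches describe these libraries only.

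Proteins that bind, traffic, edit or modify kainate receptors were measured through 28 genes, and 0 of them passed the adjusted threshold or an unadjusted p under 0.05 in edgeR. Of the 28, 16 were higher in BBP and 12 lower, none past the test, with a median log2 fold change of 0.02, also 0.02 without BBP library 1 and -0.04 without BBP library 2. The smallest p belonged to Epb41l1, which encodes the cytoskeletal protein 4.1N, at 35.7 ± 0.56 FPKM in BBP and 32.7 ± 0.99 FPKM in corn oil (SD, n = 3 each; log2 fold change 0.15 ± 0.08 SE), and Senp1, a SUMO protease gene, at 1.19 ± 0.052 FPKM in BBP and 1.05 ± 0.099 FPKM in corn oil. The editing enzyme genes Adar and Adarb1 had log2 fold changes of 0.12 ± 0.09 and 0.08 ± 0.09 (SE). C1ql2 and C1ql3 encode secreted proteins of mossy fibres that bind kainate receptors. C1ql2 had 9.89, 26.2 and 23.8 FPKM in BBP libraries 1 to 3, against 22.8, 26.6 and 15.7 in corn oil libraries 1 to 3, and so was lowest in the libraries where Grik4 was lowest. C1ql2 is also on the dentate granule list, whose medians were lowest in these same libraries, so this is not a separate observation. C1ql3 had 13.9, 17.4 and 25.1 FPKM in BBP libraries 1 to 3, against 23.6, 20.8 and 19.8 in corn oil libraries 1 to 3.

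Kainate receptors also signal through Gi/o proteins and protein kinase C. Of 9 genes of that arm 0 passed, with 6 positive, 3 negative and a median log2 fold change of 0.09. This median was 0.06 without BBP library 1, 0.04 without BBP library 2, 0.16 without corn oil library 1 and 0.03 without corn oil library 3. The smallest p was that of Gnai2, a Gi alpha subunit gene, at 37.6 ± 2.69 FPKM in BBP and 33.0 ± 1.20 FPKM in corn oil (SD, n = 3 each), and next that of Gnao1, the Go alpha subunit gene, where BBP library 2 had 74.5 FPKM and the other 5 libraries 53.2 to 55.7. Of 10 genes for glutamate release and clearance 0 passed, with 4 positive, 6 negative and a median of -0.03. Its sign turned without BBP library 1 (0.05, with 7 positive and 3 negative) and without corn oil library 1 (0.01). Among them the glutamate transporter gene Slc1a2 averaged 119.6 ± 10.9 FPKM in BBP and 106 ± 3.59 FPKM in corn oil (SD, n = 3 each), and Slc17a6, a vesicular glutamate transporter gene, 4.15 ± 0.64 FPKM in BBP and 5.00 ± 0.94 FPKM in corn oil. Of 13 AMPA, NMDA and delta receptor subunit genes 0 passed, with 9 positive, 4 negative and a median of 0.01, which was 0.08 without BBP library 1, -0.03 without BBP library 2, -0.01 without BBP library 3 or corn oil library 3, and 0.02 without corn oil library 1 or 2. The smallest p were those of Grin3a and Gria4, with log2 fold changes of -0.14 ± 0.13 and 0.14 ± 0.15 (SE). For all 4 lists the smallest edgeR adjusted p was 0.953, and the median of all tested genes was 0.01.

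The median levels of the other 8 marker lists overlapped between the groups, apart from that of endothelium, and no gene of any of the 14 marker lists passed the adjusted threshold in edgeR. As the median log2 CPM relative to the corn oil mean, the 3 endothelial markers were at 0.52, 0.18 and 0.09 in BBP libraries 1 to 3, against -0.09, 0.03 and 0.06 in corn oil libraries 1 to 3. The 7 choroid plexus markers were at -0.46, -0.11 and -0.49 in BBP, against -0.43, -0.07 and 0.57 in corn oil, so that corn oil library 3 stood apart, and their median log2 fold change was -0.58 with all libraries and -0.09 without it. The 7 oligodendrocyte markers were at 0.49, 0.56 and -0.04 in BBP, against -0.15, 0.26 and -0.11 in corn oil. Medians lay between -0.25 and -0.04 in BBP and between -0.19 and 0.28 in corn oil for 5 thalamus markers, and between -0.31 and 0.05 in BBP and -0.09 and 0.13 in corn oil for 3 markers of oligodendrocyte precursors. For 5 astrocyte markers they lay between 0.01 and 0.35 in BBP and -0.09 and 0.07 in corn oil, for 5 microglia markers between -0.12 and 0.17 in BBP and -0.04 and 0.03 in corn oil, and for 4 markers of all neurons between -0.003 and 0.21 in BBP and -0.02 and 0.06 in corn oil. The median log2 fold change was 0.19 for endothelium, 0.31 for oligodendrocytes, -0.25 for thalamus, -0.09 for oligodendrocyte precursors, 0.11 for astrocytes, 0.06 for microglia and 0.10 for all neurons. The summed FPKM of the thalamus list lay between 19.2 and 26.1 in BBP and between 29.8 and 32.6 in corn oil. That of the choroid plexus list lay between 49.4 and 62.9 in BBP and between 85.4 and 373.8 in corn oil. These sums did not overlap, although the medians of both lists did, and a single gene weighed heavily in each sum. Ttr of the choroid plexus list had 51.5, 44.5 and 58.5 FPKM in BBP, against 81.4, 115.2 and 365.8 in corn oil. Calb2 of the thalamus list had 9.71, 13.9 and 18.2 FPKM in BBP, against 20.9, 23.0 and 20.4 in corn oil.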

How the data were processed

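PolyA RNA of 6 hippocampal libraries was analysed, 3 per group, grouped by the treatment label. Per the submitters' processing notes, the build was mm10 and the tools included HISAT2 2.2.1, StringTie 2.1.6, UMI-tools, cutadapt 1.9, edgeR and DESeq2, in no stated order. Estimated counts and FPKM are given for each gene, per the file headers. Neither how the authors made the counts nor the strand setting is stated. The estimated counts are whole numbers and were used as deposited. The deposited FPKM divide by the union of annotated exons: in BBP library 1, 97.8% of 12395 genes with at least 200 counts in every library had, after 1 common factor, a length within 1% of the GENCODE M21 exon union.

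Counts were tested with edgeR 4.0.16 in R 4.3.3 (TMM, filterByExpr, quasi-likelihood test, treatment as the only term, adjusted p under 0.05). Each SE was derived from the fold change and its F statistic. Alternatives were DESeq2 1.42.0, limma 3.58.1 on log2(FPKM + 1) and log2(FPKM + 0.1), TPM, other filters and scalings, counts divided by 4, a replicate block and leaving out each library. Scripts were tested on simulated data. Sequences were read with Biopython 1.88 and figures drawn with matplotlib 3.10.9. Members, lists and tests were chosen with earlier results of these data known. Genes named from the 18 lists are the 2 with the smallest p of each pathway list and, for markers, also the 2 with the highest mean FPKM, with Adar, Adarb1 and C1ql3 chosen after their values were seen. Symbols of 2 list genes were not matched in the table.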

Additional observations from a re-analysis of the deposited data

How the results depend on the processing

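Over 105 alternative fits of the 7 genes, 0 reached an adjusted p under 0.05. The sign held in all 15 fits of Grik2, Grik3, Grik4, Grik5 and Neto2. The log2 fold change of Grik1, near 0 throughout, was -0.0024 in limma on log2(FPKM + 1) with or without the filter, -0.0041 with a pseudocount of 0.1, -0.028 on TPM, and -0.039 to 0.064 when single libraries were left out. That of Neto1 ranged from -0.17 to 0.14 when single libraries were left out. The same ranges were 0.03 to 0.22 for Grik2, 0.19 to 0.47 for Grik3, -0.43 to -0.01 for Grik4, -0.10 to -0.04 for Grik5 and 0.01 to 0.33 for Neto2. The count of genes called, 0 in edgeR, was 4 in DESeq2 and 0 to 3 when single libraries were left out. Genes at an unadjusted p under 0.05 numbered 685, against 396, 392 and 236 in the filtered limma fits (pseudocounts 1 and 0.1, and TPM), 1068 without the filter, and 393 to 1530 when single libraries were left out. The cause was not tested. Same-numbered libraries had correlations of their deviations from the group means between -0.18 and 0.12, and 1 of 3 BBP libraries correlated best with its own number. With 3 libraries per group, this cannot decide whether replicate numbers mark pairs. With a replicate block 494 genes stood at an unadjusted p under 0.05 and 0 were called, and Grik3 was at 0.36, Grik4 at -0.31 and Neto1 at -0.06. The number of libraries, 3 per group, limits the precision, and since how the counts were made is not stated, no counting interval is given.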
